A study of Mus musculus with 6 samples.

Results

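The nuclear-encoded subunits of respiratory complex I were followed in the retina of wild-type C57BL6/J mice. Members were all genes whose symbol starts with Nduf, then a, b, c, s or v, then a number, and 37 of the 15465 measured genes met this rule, which uses no measured value. Of the 37, 35 are complex I subunits, and Ndufa4 and Ndufa4l2 carry the name without being such subunits. The symbols of 7 members extend another symbol by a digit or are extended in this way (Ndufa1, Ndufa10, Ndufa11, Ndufa12, Ndufa13, Ndufb10 and Ndufb11), and these digit-extended symbols are described apart from the other 30.

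RNA sequencing libraries of retina were prepared from pools of 5 mice, with 3 biological replicates of 2 technical replicates each, which makes 6 samples of 1 group. The technical replicates share 1 deposited column, so n was 3 and no comparison with another genotype was made (other genotypes and whole eye were not analysed here). Neither age nor sex of the mice is given in the sources used here. The source labels pair the samples in another way than the titles, which were followed. Nothing beyond the titles says that the pools were independent, so every SD and p-value measures only the spread between these 3 columns, which may be technical.

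Complex I is the entry point of the mitochondrial respiratory chain. Its core subunits, some encoded in the nucleus and the others in mitochondrial DNA, oxidise NADH, pass the electrons along iron-sulfur clusters to ubiquinone and pump protons across the inner membrane, while supernumerary subunits surround the core and are needed for its assembly and stability. Photoreceptors use much of the energy of the retina, their inner segments are packed with mitochondria, and the ganglion cells of the retina are the cells lost in Leber hereditary optic neuropathy, which mutations of mitochondrially encoded complex I subunits cause.

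Nuclear genes of the respiratory chain are known for sites of the transcription factors NRF1 and YY1 and of the ETS family (which holds GABPA) near their starts. In RefSeq sequence of the build GRCm38.p6, 32 of the 37 members had 34 promoters between them, each spanning 250 bases before to 50 bases after the start. The NRF1 core CGCANGCG stood on either strand in 12 of the 34 (35.3%) and in 8.21% of all 32851 promoters of the same length. These 12 promoters belong to 10 genes, because Ndufa5 and Ndufa7 each have 2 overlapping promoters that hold the same match. The YY1 core AAGATGGC stood in 7 (20.6%) against 2.75% of all promoters, the ETS core CCGGAAG in 4 (11.8%) against 8.86%, and the TATA box letters TATAAA in 5 (14.7%, from 4 genes) against 13.6%. No motif is contained in another. These shares describe letters and show no binding.

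Stretches of 150 bases from 4 of these promoters (120 before and 30 after the start) are given to show how such matches are arranged. They were chosen after the matches were known, and capitals mark the matches. The stretch of Ndufa8 is chr2:36049309-36049458 on the minus strand with 2 NRF1 matches, and that of Ndufb4 is chr16:37654339-37654488 on the minus strand, also with 2. The stretch of Ndufa3 is chr7:3617253-3617402 on the plus strand with a YY1 match just after the start. That of Ndufs3 is chr2:90904692-90904841 on the minus strand with 2 ETS matches, which face opposite ways.
Ndufa8: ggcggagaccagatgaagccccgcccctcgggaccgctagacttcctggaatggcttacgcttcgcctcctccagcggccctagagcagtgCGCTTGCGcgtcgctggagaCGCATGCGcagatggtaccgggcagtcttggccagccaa
Ndufb4: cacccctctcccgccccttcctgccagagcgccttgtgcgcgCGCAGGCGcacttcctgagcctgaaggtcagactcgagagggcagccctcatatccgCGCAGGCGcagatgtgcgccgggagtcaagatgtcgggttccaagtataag
Ndufa3: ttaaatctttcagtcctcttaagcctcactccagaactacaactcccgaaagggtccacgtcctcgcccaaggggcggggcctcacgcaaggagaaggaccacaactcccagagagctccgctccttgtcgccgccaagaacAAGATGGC
Ndufs3: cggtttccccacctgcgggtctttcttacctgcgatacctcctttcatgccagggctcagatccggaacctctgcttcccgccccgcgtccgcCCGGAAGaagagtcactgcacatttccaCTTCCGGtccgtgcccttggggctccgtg

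Levels are given in RPKM, the reads of a gene per length of its transcript and per sequenced library, so that they can be compared between genes. The read depth is unknown. The median over the 37 members was 37.7, 46.8 and 36.7 RPKM in replicates 1, 2 and 3, which gives 40.4 ± 5.53 RPKM (SD, n = 3), and over all genes it was 6.09 ± 0.396 RPKM. A mean of 10 RPKM or more was reached by 35 of the 37 members and of 100 RPKM or more by 7, against 5851 and 326 of the 15465 genes. The median of the members was above that of all genes in each replicate. In bulk tissue, fewer cells of a type and less RNA per cell cannot be told apart.

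**Figure D1:**
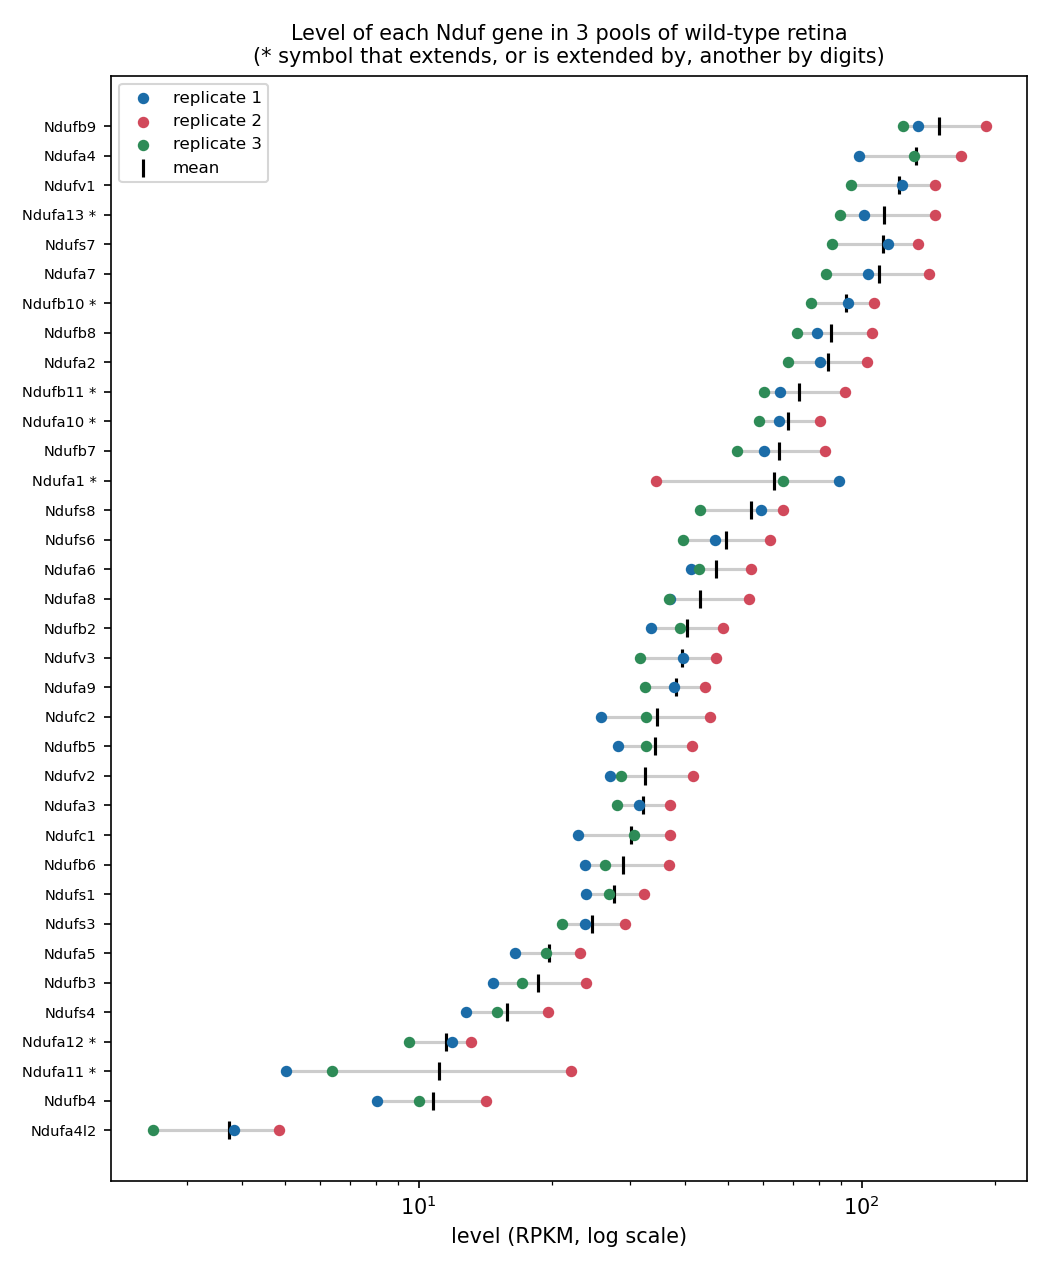
Level of each Nduf gene in RPKM on a log axis, with 1 point per biological replicate, a grey line over their range and a black tick at the mean; Ndufs5, listed at 0, and 1 further member are left out, and asterisks mark digit-extended symbols. Replicate 2 is the highest point for every gene shown except Ndufa1, and the points of Ndufa1 and Ndufa11 lie farthest apart.

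The 7 nuclear core subunits had a median of 56.3 ± 12.0 RPKM, and the lowest mean among them was 24.6 RPKM, for Ndufs3. In the arm that oxidises NADH (the N module), Ndufv1, which binds NADH and the flavin, had 123, 147 and 94.7 RPKM in replicates 1, 2 and 3. Its iron-sulfur partner Ndufv2 had 27.0, 41.5 and 28.6 RPKM. Ndufs1, the large subunit that carries several iron-sulfur clusters, had 23.8, 32.3 and 26.8 RPKM. Ndufv1 was higher than either of the others in every replicate, by 3.80 ± 0.674-fold over Ndufv2 and by 4.42 ± 0.831-fold over Ndufs1, and the ranges did not overlap.

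In the arm that reduces ubiquinone (the Q module), Ndufs7, which carries the last iron-sulfur cluster before ubiquinone, had 115, 134 and 85.8 RPKM. Ndufs8, which holds a further pair of clusters, had 59.3, 66.6 and 43.1 RPKM. Ndufs3, a core subunit without a cluster, had 23.7, 29.2 and 21.1 RPKM. The order from Ndufs7 through Ndufs8 to Ndufs3 held in each replicate, and the ranges of the 3 genes did not overlap. Ndufs7 was 1.98 ± 0.0366-fold above Ndufs8, with ratios of 1.94, 2.01 and 1.99 in replicates 1, 2 and 3. Ndufs3 shares 35.8% of its 50-base words with other annotated genes (none for Ndufs7 and Ndufs8), and how such reads were counted is not given in the sources used here.

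The 28 supernumerary subunits had a median of 39.3 ± 5.97 RPKM and means from 0 to 150 RPKM. Ndufb9, a small subunit at the far end of the membrane arm that anchors the acyl carrier protein, was the highest of all members with 134, 191 and 124 RPKM, rank 186 of the 15465 genes. Ndufa7, a subunit of the peripheral arm, had 103, 142 and 83.2 RPKM. The ranges of this pair overlapped.

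At the low end, Ndufb4, which sits in the membrane arm, had 8.07, 14.2 and 10 RPKM. It was 14.1 ± 2.19-fold below Ndufb9, and their ranges lay far apart, although both proteins occur once in each complex. Ndufb4 shares 37.0% of its 50-base words with other annotated genes and Ndufb9 23.4%. Ndufs5, a cysteine-motif protein of the intermembrane space, was listed at 0 in all 3 replicates, as were 149 genes (0.963%), so this is no statement that the gene was silent.

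Ndufs5 was compared with its nearest copy because a gene of a universal complex stood at 0. The copy, BC002163, is a processed pseudogene by GENCODE that was also measured, with 4.24, 7.52 and 4.83 RPKM (5.53 ± 1.75 RPKM). Over 319 aligned bases from the start codon on, the copy differed from Ndufs5 at 2 positions, T81C and A105G (99.4% identity; Ndufs5 base first, positions counted from 1 at the A of the start codon). Of the 50-base words of the Ndufs5 transcript, 41.2% also occur in the copy. Bases 61 to 120 of each are given, with the differing bases in capitals.
Ndufs5: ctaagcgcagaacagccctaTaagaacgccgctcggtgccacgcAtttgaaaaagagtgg
BC002163: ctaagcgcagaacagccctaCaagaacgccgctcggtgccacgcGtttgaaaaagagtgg
The copy had values in all 3 replicates and was highest in replicate 2, as were 64.3% of all genes in the values as deposited. Whether reads of Ndufs5 were placed on the copy was not tested.

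The remaining supernumerary subunits of the N module were Ndufa2, a thioredoxin-fold protein (83.9 ± 17.6 RPKM), Ndufs6, which binds zinc (49.4 ± 11.5 RPKM), Ndufa6, which also anchors an acyl carrier protein (46.8 ± 8.12 RPKM), Ndufv3 (39.3 ± 7.59 RPKM) and Ndufs4 (15.8 ± 3.43 RPKM). Ndufs4 is the gene whose loss gives a widely used mouse model of Leigh syndrome, and it had the lowest mean of the 7 genes named Ndufs with a value above 0. Those of the Q module were Ndufa9, which is related to short-chain dehydrogenases (38.1 ± 5.95 RPKM), and Ndufa5 (19.7 ± 3.33 RPKM). The ranges of Ndufa9 and Ndufa5 did not overlap.

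In the membrane arm, the parts around the mitochondrially encoded ND1 held Ndufa8, another cysteine-motif protein (43.1 ± 10.9 RPKM), and Ndufa3 (32.1 ± 4.499 RPKM). Those around ND2 held Ndufc2 (34.6 ± 9.94 RPKM) and Ndufc1 (30.2 ± 7.04 RPKM), 2 small subunits found together in the complex. Those around ND4 held Ndufb5 (34.1 ± 6.76 RPKM) and Ndufb6 (28.9 ± 6.86 RPKM). Those around ND5, at the far end, held Ndufb8 (85.3 ± 17.8 RPKM), Ndufb7 (65.0 ± 15.6 RPKM), Ndufb2 (40.3 ± 7.65 RPKM) and Ndufb3 (18.6 ± 4.74 RPKM). No module was uniform: the 5 genes measured around ND5 ran from 18.6 RPKM for Ndufb3 to 150 RPKM for Ndufb9. Ndufb1, also of the ND4 part, and the 7 mitochondrially encoded core subunits were not analysed here.

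Of the 7 digit-extended symbols, 5 differed between replicates by no more than the members with other symbols did. Ndufa13, also known as GRIM-19, had 101, 146 and 89.2 RPKM. Ndufb10, a cysteine-motif protein, had 93.04, 107 and 76.9 RPKM. Ndufb11 had 65.4, 91.5 and 60.1 RPKM. These genes were highest in replicate 2 and lowest in replicate 3. Ndufa10, which is related to nucleoside kinases, had 65.2, 80.6 and 58.6 RPKM, and Ndufa12, a relative of the assembly factor Ndufaf2, had 11.9, 13.1 and 9.53 RPKM. The ranges of Ndufa12 and Ndufa10 lay apart, and Ndufa12 shares 26.2% of its 50-base words with a pseudogene.

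The other two digit-extended members moved apart. Ndufa1, an X-linked subunit needed for assembly of the membrane arm, had 89.1, 34.4 and 66.5 RPKM, with its lowest value in replicate 2. Ndufa11, a membrane subunit beside ND2, had 5.02, 22.01 and 6.36 RPKM, with its highest value in replicate 2. The ratio of Ndufa1 to Ndufa11 was therefore 17.7, 1.56 and 10.5 in replicates 1, 2 and 3, and their sum was 94.1, 56.4 and 72.8 RPKM. The symbol Ndufa11 is the symbol Ndufa1 with a further digit, as are those of Ndufa10, Ndufa12 and Ndufa13. The transcripts differ in length (419 nt for Ndufa1 and 545 nt for Ndufa11). A sum of RPKM is therefore not a sum of reads, and no conclusion is drawn from it. The cause of the opposite movement was not tested.

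Variation between replicates was tested on log2(RPKM + 0.1) after the replicates were scaled to a common trimmed mean. In this test limma sets the variance of each gene against that of genes of its level, over 12562 genes whose mean reached 1 RPKM, at an adjusted p of 0.05. Of the 36 members tested (Ndufs5 had no value), 2 were called, beside 5.41% of all genes. They were Ndufa11 (SD 1.03 on the log2 scale, limma adjusted p = 0.00507) and Ndufa1 (SD 0.80, limma adjusted p = 0.0218). Both are among the 7 digit-extended members, and of all digit-extended genes 29.8% were called. None of the other 29 members was called by limma, beside 0.535% of other genes, and 0 of the 29 had an unadjusted p under 0.05 (5 of the 29 did in the fit without digit-extended symbols, with 0 called). With limma's non-robust prior 0 of all genes were called, 704 had an unadjusted p under 0.05 and 2 of these were members. Leaving out replicate 1, 2 or 3 ended the call of Ndufa1 (limma adjusted p = 0.176, 0.991 and 0.0528), and leaving out replicate 1 or 2 ended that of Ndufa11 (0.0640 and 0.991).

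Broad rank was kept between replicates while the order of neighbours was not. Of the 36 neighbouring pairs in the order of means, 34 had overlapping ranges, and only 14 had the same order in all 3 replicates. The exceptions with separate ranges were Ndufb4 above Ndufa4l2 and Ndufa4l2 above Ndufs5. Across the 37 members, Spearman correlations between replicates were 0.942 to 0.979, as a description across genes, which are not independent replicates. In 34 members the highest replicate was less than 2-fold above the lowest.

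Members moved together between the replicates. After scaling, 34 of the 36 were highest in replicate 2, beside 34.7% of all genes and 69.1% of genes with transcripts under 1000 nt. The exceptions were Ndufa1 and Ndufa12, both highest in replicate 1 and both digit-extended. The median deviation of the members from their own mean was -0.08, 0.19 and -0.11 on the log2 scale in replicates 1, 2 and 3, where the medians of all genes tested were 0.00 in each replicate. In the values as deposited, 35 of the 36 were highest in replicate 2, beside 64.3% of all genes. Replicate 2 is 1 pool, so this describes that library.

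**Figure D2:**
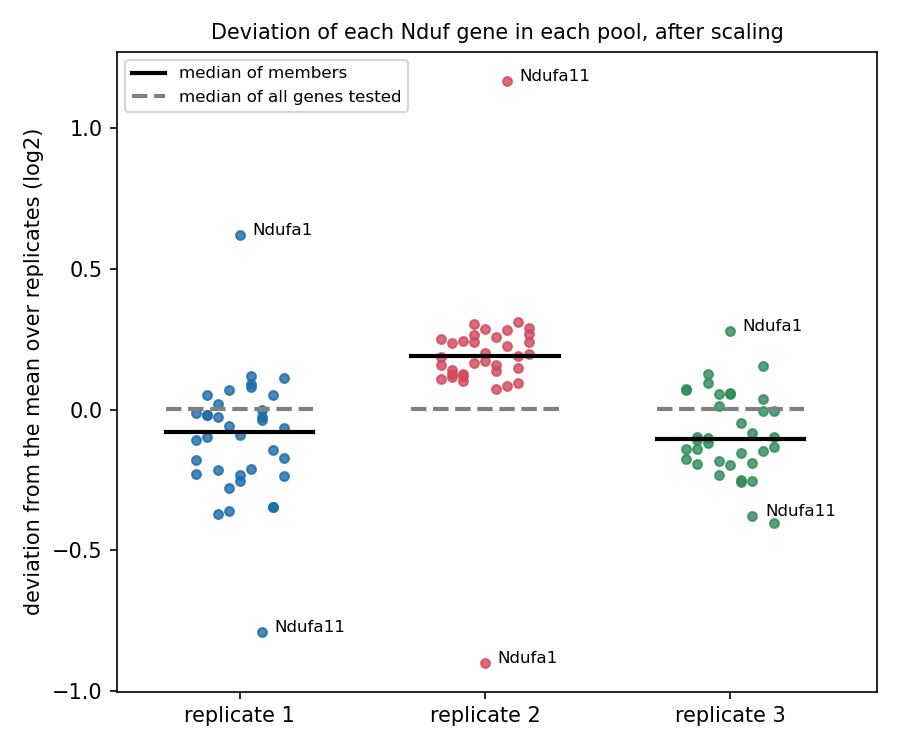
Deviation of each Nduf gene from its mean over the replicates (log2, after scaling) in each replicate, with the median of the members as a black line and of all genes tested as a dashed line. In replicate 2 the members lie above 0 except Ndufa1, and Ndufa1 and Ndufa11 mark opposite ends.

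The members are short genes, and transcript length moved with the replicates. The median transcript length was 763 nt for members and 2817 nt for all genes. Over all genes, the median deviation in replicate 2 was 0.13 for transcripts under 500 nt (130 genes) and 0.15 for 500 to 1000 nt. It was 0.10 for 1000 to 2000 nt, 0.01 for 2000 to 4000 nt and -0.11 for 4000 nt or more. Once the trend on length was removed in each replicate, 17 of the 36 members were highest in replicate 2, beside 30.5% of all genes, and their median deviation there was 0.07. With the trends on length and GC content both removed, the count was 22, beside 35.3%. Within the members, length and the deviation in replicate 2 had a Spearman correlation of -0.065 (n = 36 genes of 3 shared libraries), against -0.554 over 12394 genes.

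**Figure D3:**
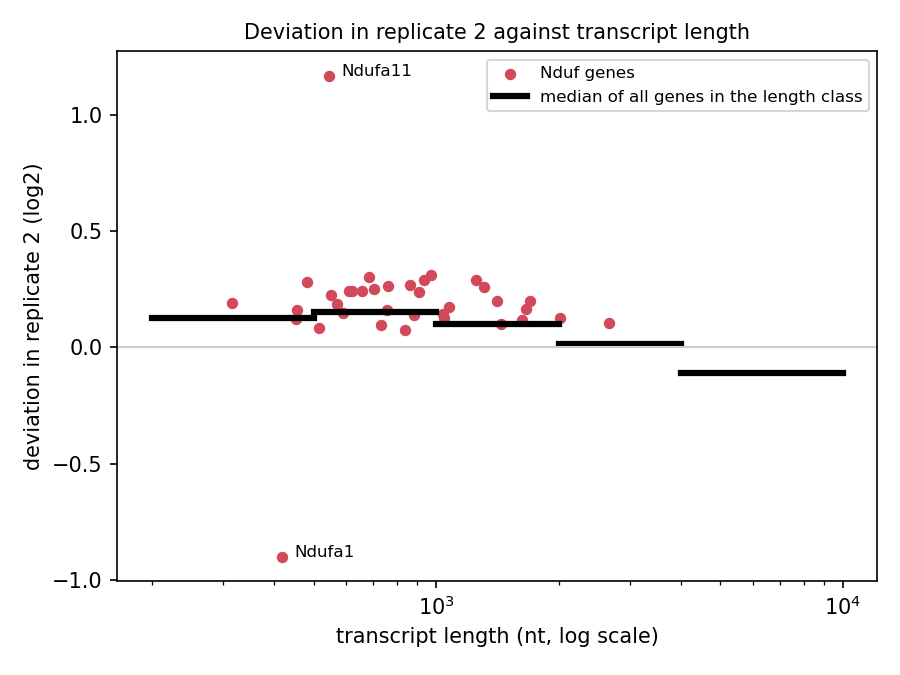
Deviation of each Nduf gene in replicate 2 (log2) against transcript length (nt, log axis), with black bars at the median of all genes in each length class; the outer classes are open-ended. The members sit mostly between 500 and 2000 nt, where the medians of all genes are also above 0.

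Some markers of other tissue were also highest in replicate 2. The summed level of 8 skeletal muscle markers was 11.1, 28.3 and 7.68 RPKM (Tnnt3 was listed at 0 in replicate 3). After scaling, all 5 muscle markers that passed the level filter were highest in replicate 2, beside 34.7% of all genes. Limma called 2 of the 5, Acta1 and Tnni2, beside 5.41% of all genes. Both shares also apply to the other counts of this paragraph. Tnni2 (0.34, 3.21 and 0.04 RPKM) passed the filter only through replicate 2, so the filter favoured a maximum there. The median transcript length of the 8 was 888.5 nt, and 72.1% of all genes of 500 to 1000 nt were highest in replicate 2. The summed level of 4 cornea and conjunctiva markers was 7.76, 16.5 and 9.81 RPKM. Its higher value in replicate 2 came from Krt5 (1.95, 8.41 and 3.08 RPKM) and Aldh3a1 (3.29, 6.79 and 3.32 RPKM). Krt14, also among the 4, stood near 0 (0.02, 0.03 and 0.05 RPKM). Of the 3 tested, 2 were highest in replicate 2, and limma called 2, Krt5, which was highest there, and the digit-extended Krt12, which was lowest there (2.50, 1.24 and 3.36 RPKM). The 6 rod markers summed to 18991, 21358 and 17200 RPKM, with 2 of 6 highest in replicate 2 after scaling and 0 of 6 called by limma (0 with an unadjusted p under 0.05). For cones 2 of 4 markers were highest there after scaling, for bipolar cells 0 of 4 and for Muller glia 2 of 4. For amacrine cells it was 1 of 3, for ganglion cells 2 of 4 and for horizontal cells 1 of 3. Lens fibre markers (659, 305 and 1786 RPKM over 11 genes) and pigment epithelium markers (354, 334 and 167 RPKM over 6 genes) were not highest in replicate 2 as sums. Limma called 9 of the 11 and 4 of the 6. Of these 4, the digit-extended Rpe65 was highest in replicate 2 (6.25, 20.06 and 6.74 RPKM). The others called, Pmel, Mlana and Tyrp1, were highest in replicate 1 and lowest in replicate 3. The haemoglobin genes Hba-a1 and Hba-a2, markers of blood, stood at 0, which, as for Ndufs5, does not show that they were silent, and the blood marker Alas2 had 0.42, 0.38 and 0.66 RPKM. The part of any of these in the members' levels was not tested.

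Between replicates 1 and 3 the members separated by GC content. All 4 members with a GC content under 45% were higher in replicate 3, as were 4 of 6 between 45% and 50%, 6 of 15 between 50% and 55%, 1 of 9 between 55% and 60%, and neither of the 2 at 60% or above. Ndufs4, of 43.1% GC, was 0.31 higher in replicate 3 on the log2 scale, and Ndufs8, of 56.97% GC, was lower, with a difference of -0.38. All genes had the same gradient, with a median difference of 0.23 under 45% and -0.27 at 60% or above. Spearman correlations were -0.499 for 36 members, -0.690 for the 29 without digit-extended symbols and -0.623 for 12394 genes, as descriptions of the same 2 libraries.

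**Figure D4:**
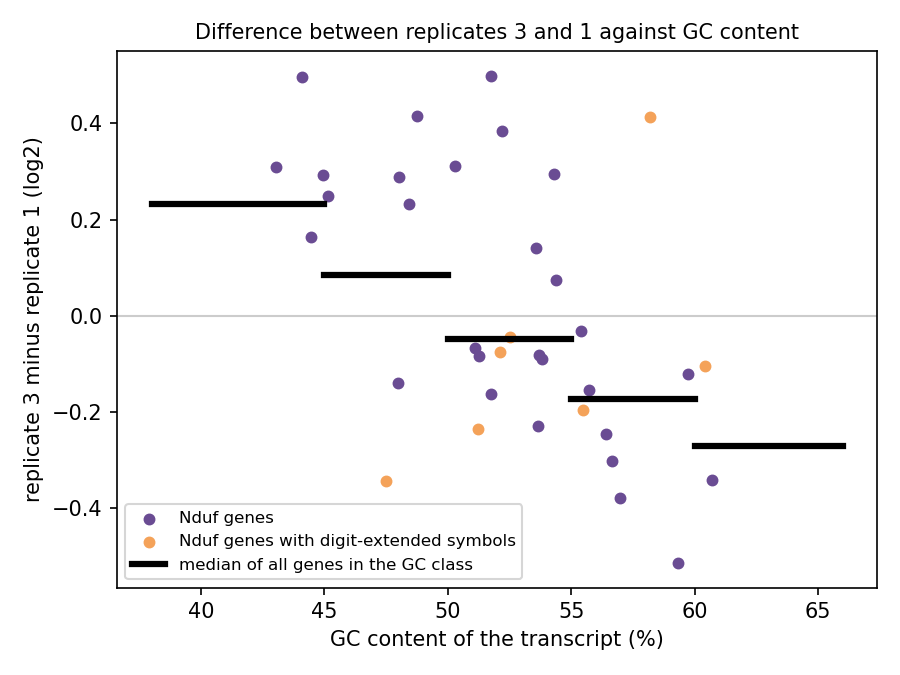
Difference between replicates 3 and 1 (log2, after scaling) for each Nduf gene against the GC content of its transcript (%), with black bars at the median of all genes in each GC class; the outer classes are open-ended. Members under 45% GC lie above 0, and of the 11 members at 55% or above the single one above 0 is the digit-extended Ndufa11.

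Ndufa4 and Ndufa4l2 carry Nduf names but are not complex I subunits. Ndufa4, now counted as a subunit of complex IV, had 98.4, 167 and 131 RPKM. Its paralogue Ndufa4l2, which is induced in hypoxia, had 3.83, 4.83 and 2.51 RPKM. Ndufa4 was 37.6 ± 13.6-fold higher, with ratios of 25.7, 34.6 and 52.3, and the ranges lay far apart. Ndufa4 stood among the 3 highest genes of the pattern and Ndufa4l2 was the lowest with a value above 0. Ndufab1, the acyl carrier protein, is a complex I subunit outside the pattern and had 2.16, 2.39 and 1.94 RPKM, far below Ndufb9 and Ndufa6, to which its protein binds. Its annotated transcript is 3479 nt long, and 12.3% of its 50-base words occur in other genes.

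Assembly factors, which build complex I without staying in it, were much lower than the subunits. Of 16 listed, 11 were measured, with a median of 7.23 ± 1.68 RPKM, which is 0.178 ± 0.0190 times that of the complex I subunits. Ndufaf3, which acts on the Q module, was the highest with 25.1, 32.2 and 20.5 RPKM, and Nubpl, which delivers iron-sulfur clusters, the lowest with 2.36, 3.20 and 2.54 RPKM. The group that builds the ND2 part lay between them, with Ecsit at 15.2 ± 2.03 RPKM, Acad9 at 7.98 ± 1.01 RPKM, Ndufaf1 at 6.03 ± 1.09 RPKM and Tmem126b at 5.70 ± 0.734 RPKM. All 11 were highest in replicate 2 after scaling, beside 34.7% of all genes, and their median transcript length was 2232 nt. Limma called 0 of the 11, with 0 at an unadjusted p under 0.05. Among all genes 5.41% were called, and 0.535% of those without digit-extended symbols, so 0 of 11 says little.

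The other complexes had higher medians than complex I in every replicate, over the genes listed for each. The list of complex IV leaves out Ndufa4, and that of complex I leaves out Ndufab1. Complex II had 59.4 ± 14.2 RPKM over 4 genes, complex III 76.4 ± 17.7 over 9, complex IV 70.6 ± 13.0 over 10 and ATP synthase 60.7 ± 12.3 over 15. Against the complex I subunits these were ratios of 1.46 ± 0.141, 1.88 ± 0.238, 1.74 ± 0.0768 and 1.49 ± 0.114, and an exact sign-flip test over 3 replicates could not give a two-sided p under 0.25. The highest gene was Sdha in complex II (86.5 ± 10.2 RPKM), Uqcrc1 in complex III (176 ± 38.8 RPKM), Cox8a in complex IV (256 ± 45.6 RPKM) and Atp5b in ATP synthase (559 ± 110 RPKM). The lowest was Sdhd (45.3 ± 10.6 RPKM), Uqcrb (9.21 ± 2.64 RPKM), Cox7c (0.850 ± 0.125 RPKM) and Atp5l (0.913 ± 0.135 RPKM). Of their 50-base words, Uqcrb shares 43.2%, Cox7c 53.0% and Atp5l 68.5% with other annotated genes (Sdhd none), so these 3 low values are uncertain. Limma called 1 of their 35 tested genes, beside 5.41% of all genes. It was Cox7b, a digit-extended symbol with 23.8, 0.04 and 0.05 RPKM (limma adjusted p = 3.02e-05), which passed the level filter only through replicate 1. The calls of complex I were also digit-extended, but so were 623 of the 679 genes called among all genes. The other complexes were highest in replicate 2 in 4 of 4, 9 of 9, 8 of 9 and 11 of 13 genes tested, beside 34.7% of all genes. Their median transcript lengths were 2065.5, 1363, 631.5 and 838 nt in the same order.

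**Figure D5:**
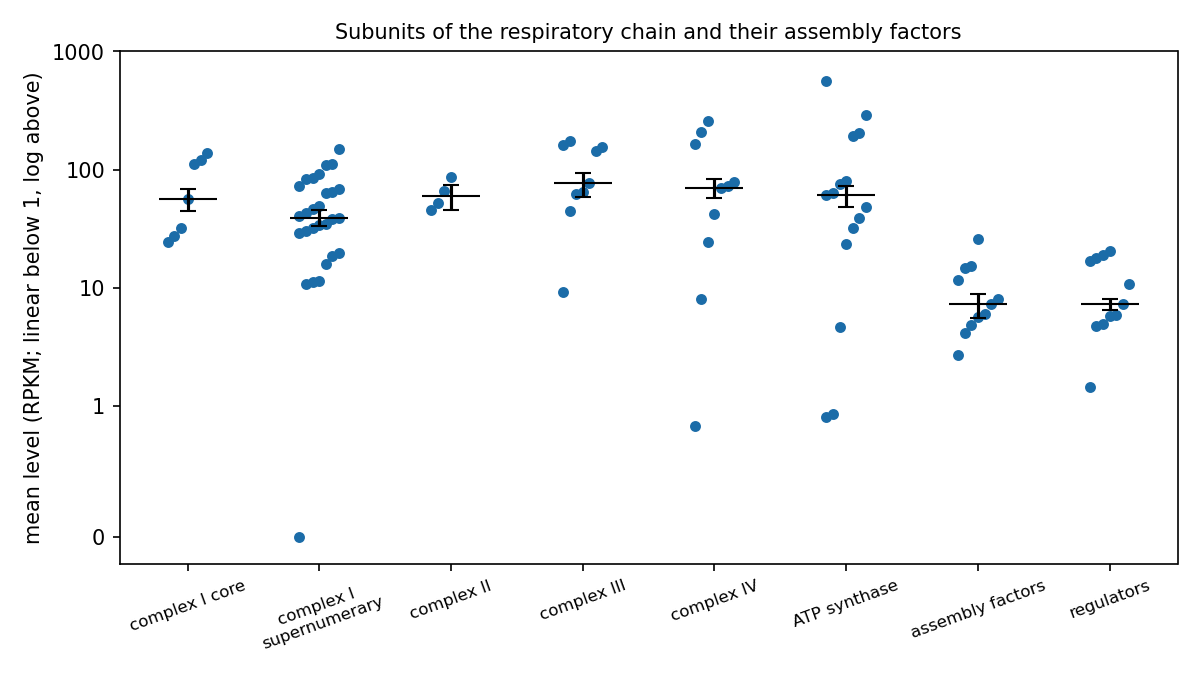
Mean level of each gene in RPKM (linear below 1, log above) for the core and supernumerary subunits of complex I, the other complexes, the assembly factors of complex I and regulators of respiratory genes, with the median of each group and its SD over the 3 replicates. Assembly factors and regulators sit near 7 RPKM, below the medians of all complexes, and the point at 0 is Ndufs5.

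The factors whose motifs were counted above (Nrf1, Yy1 and, for the ETS family, Gabpa) lay below the median of the complex I subunits (40.4 RPKM). Against the median of all genes (6.09 RPKM), Nrf1 and Yy1 were higher and Gabpa was close to it. The 11 regulators of respiratory gene expression had a median of 7.26 ± 0.733 RPKM, from 1.46 ± 0.130 for Tfb2m, a mitochondrial transcription factor, to 20.5 ± 2.04 for Yy1. Nrf1 had 10.8, 11.8 and 9.80 RPKM, and Gabpa, the DNA-binding ETS subunit, had 5.65, 6.20 and 5.78 RPKM. In contrast to the subunits, 3 of the 11 were highest in replicate 2 after scaling, beside 34.7% of all genes. The median transcript length of the 11 was 3755 nt. Limma called 0 of the 11, with 0 at an unadjusted p under 0.05, beside 5.41% called among all genes and 0.535% among those without digit-extended symbols. The genes of mitochondrial mass included citrate synthase Cs (49.2 ± 6.32 RPKM) and the outer membrane channel Vdac1 (164 ± 29.2 RPKM). All 5 of them were highest in replicate 2, with a median deviation there of 0.10, where the members had 0.19. The median transcript length of these 5 was 2423 nt, and 33.4% of all genes of 2000 to 4000 nt were highest in replicate 2.

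Exons of several members overlap a gene on the opposite strand, and whether counting used strand is not given in the sources used here. By GENCODE, the overlap covers 39.0% of the exonic bases of Ndufb6 (with Smim27), 29.98% of Ndufa13 (Tssk6), 12.9% of Ndufb11 (Rbm10), 12.3% of Ndufb5 (Mrpl47) and 11.5% of Ndufa2 (Tmco6). Ndufb9 shares 19.5% with Gm49356 on the same strand. Of the 37 members, 14 share a 50-base word with another annotated gene and 6 share over 20% (Ndufs5, Ndufb4, Ndufs3, Ndufa12, Ndufb2 and Ndufb9). The median level of these 6 was 18.1 RPKM, and of the 23 that share none it was 43.1 RPKM. The Spearman correlation of level with the shared part was -0.147 over 36 members. It leaves out Ndufs5, listed at 0 with 41.2% shared, which the median of the 6 includes. The values of the 6 are uncertain, and a correlation across members does not measure by how much.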

How the data were processed

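Retina RNA of wild-type mice was analysed as 1 column of values per biological replicate (n = 3). Per the submitters' processing notes, the authors used GSNAP and HTSeq with the build mm9, with no version given. The values deposited by the authors are used here as RPKM, although no label or header names the unit, because they are decimals whose products with transcript length (kb) add up to 785290, 828409 and 728550 over the genes of replicates 1 to 3, and FPKM would look alike. Neither annotation nor filters nor read depth is given in the sources used here, and the low values showed no steps of whole reads that could be relied on (33.2% to 33.6% within 0.15 of a whole number, where an even spread gives 30%), so no counting error is given. Of 15468 rows, 3 repeated a symbol with identical values, which left 15465 genes.

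Levels are printed as deposited. For the test, each replicate was divided by a trimmed-mean factor (trimming 30% by ratio and 5% by level; factors 0.984, 1.09 and 0.931) and put on a log2 scale with a pseudocount of 0.1, which understates differences of low genes. Without scaling the replicates stood apart by -0.02, 0.13 and -0.10. limma 3.58.1 (R 4.3.3, statmod 1.5.0, robust trended prior) gave an F test of each gene's variance with Benjamini-Hochberg adjustment over 12562 genes, tested on simulated data. The outcome of that check is not given here, so it lends no weight to the calls. With the non-robust prior 0 genes were called. Python 3.11.15, numpy 2.4.6, pandas 2.3.3, scipy 1.17.1 and matplotlib 3.10.9 were used otherwise.

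Transcript length and GC content (98.5% of genes), 50-base words and exon overlaps came from GENCODE M21 and promoters from RefSeq. Both are of GRCm38.p6, another build than the authors', and no coordinate was converted. A gene's length is the median over its transcripts. Symbols that equal another symbol plus a digit, or are such a shorter symbol, numbered 2656, of which 2088 were tested. Values per replicate were given for core subunits (1 is not reported here), the 4 highest and 4 lowest supernumerary genes, called genes, digit-extended members and Ndufa4 with Ndufa4l2, and other lists by their highest, lowest and called genes, plus a few chosen for their role. Members, lists and tests were chosen with earlier results of these data known. Alternatives were another prior, pseudocount, filter, scaling or summary, leaving out digit-extended symbols or a replicate, and removing trends on length. Removal of the GC trend, of both trends, combinations of 2 choices and leaving out genes with shared 50-base words were added after the data were seen.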

Additional observations from a re-analysis of the deposited data

How the results depend on the processing

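Of all genes, 679 varied between replicates. The count was 0 with the non-robust prior (704 at an unadjusted p under 0.05), 296 with a filter at 10 RPKM, 98 without digit-extended symbols, 305 with the length and GC trends removed and 306 to 466 when 1 replicate was left out. Without digit-extended symbols it was 48 with the non-robust prior and 49 with the length trend removed. Of the members, 2 were called. The count was 0 with the non-robust prior, 0 without digit-extended symbols (also in those combinations), 1 with the GC trend removed (Ndufa11), 0 with both trends removed and 0 to 1 when 1 replicate was left out. Ndufa1 had a limma adjusted p of 0.561 with the non-robust prior, 0.0973 with the GC trend removed and 0.0825 with both removed. For Ndufa11 the values were 0.389 with the non-robust prior and 0.107 with both trends removed. Over all alternatives the adjusted p ran from 0.000135 to 0.991 for Ndufa1 and from 9.39e-12 to 0.991 for Ndufa11. Members highest in replicate 2 numbered 34, 17 with the length trend removed and 22 with both removed. The cause was not tested. The median level of the members moved by less than its SD between replicates under every alternative run. Their median deviation in replicate 2 was 0.19, and it was 0.07 with the length trend or both trends removed and 0.32 without scaling. In replicate 3 it was -0.11, and -0.03, -0.01 and -0.21 in turn. In replicate 1 it was -0.08, and 0.04 without replicate 2.

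With 1 group, 3 columns and no read depth, small differences between members, and values at or near 0, cannot be resolved. No paired analysis was possible because there is 1 group and no comparison between groups.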

Other observations

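Besides Atp5l, 2 subunit genes of other complexes stood near the lowest levels of the respiratory chain: Cox7c of complex IV, with 0.860, 0.970 and 0.720 RPKM, and Atp5g2 of ATP synthase, with 1.11, 0.850 and 0.850 RPKM. Some paralogues or neighbours in the same complexes were far higher, such as Cox7a2 with 42.0 ± 8.56 RPKM and Atp5g3 with 194 ± 35.8 RPKM, and the ranges did not overlap. Others were also low. Atp5g1 had 4.66 ± 0.915 RPKM. The digit-extended Cox7b had 0.04 and 0.05 RPKM in replicates 2 and 3, against 23.8 RPKM in replicate 1. Cox7c shares 53.0% of its 50-base words with pseudogenes and Atp5g2 87.4%, where Cox7a2 and Atp5g3 share none. The low values of Cox7c and Atp5g2 are therefore uncertain. Atp5j and Atp5j2, a pair of digit-extended symbols, moved in opposite directions, as Ndufa1 and Ndufa11 did. Atp5j had 51.4, 122 and 52.9 RPKM and was highest in replicate 2, and Atp5j2 had 57.6, 39.5 and 48.5 RPKM and was lowest there. Neither was called by limma (adjusted p = 0.0883 and 0.602), and the cause was not tested.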
